A study of Mus musculus with 40 samples.

Results

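The renin-angiotensin-aldosterone genes described here are 9 genes of the 55401 in the table of kidney cortex transcripts. They are angiotensinogen (Agt), renin (Ren1), angiotensin-converting enzyme (Ace) and the peptidases Enpep, Anpep and Mme. The others are the angiotensin receptor Agtr1a, the mineralocorticoid receptor Nr3c2 and Hsd11b2. All were chosen as named members of this hormone system and not by their values, but with earlier results of these data known. All 9 were in the table, and all 9 passed the filter of a mean of at least 10 counts in each of the 13 comparisons. RNA was sequenced from the kidney cortex of 40 male C57BL/6J mice, 20 Akita mice and 20 wild-type (WT) littermates, with 5 mice in each of 8 groups. Akita mice are heterozygous for a mutation in the insulin gene Ins2, which makes insulin misfold and causes diabetes without obesity, whereas WT mice carry no such allele. In the ethanol arm, WT and Akita mice received either 10% ethanol in water (vehicle) or MitoGamide at 10 mg/kg in that vehicle. In the water arm, WT and Akita mice received either water or MitoQ, whose dose is not given in the labels. The protocol gives daily oral gavage from 6 to 22 weeks of age for the ethanol arm. The same start and end ages, 6 and 22 weeks, are recorded for the mice of the water arm. The route of treatment in the water arm is not given in the sources used here. The model is one mutation on one strain background, and each library is a piece of cortex holding many cell types.

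Renin, which is released by juxtaglomerular cells of the kidney, cuts angiotensinogen into angiotensin I, and angiotensin-converting enzyme cuts this into angiotensin II. Angiotensin II acts on the receptor encoded by Agtr1a, constricting vessels and raising sodium retention and aldosterone release, and peptidases on the brush border of the proximal tubule break it down. Aldosterone acts on the mineralocorticoid receptor in the distal nephron, where Hsd11b2 inactivates glucocorticoids that would otherwise occupy the receptor. Blockers of this system are a main treatment of diabetic kidney disease.

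Ace, Agt and Enpep were the 3 of 9 members called in at least 2 of the 4 comparisons of Akita with WT mice (7.83% of all genes were), and the 250 bases before their transcription start are shown because they are the control regions nearest to the genes whose transcripts differed. The sequences are those of RefSeq on GRCm38.p6, where 7 of the 9 members were matched, and Agtr1a and Hsd11b2 were not. Ace had 2 entries there, and the one nearest to the start of its gene model is shown. They read 5′ to 3′ on the strand of the gene and lie at chr11:105967698-105967947 on the + strand for Ace, chr8:124569707-124569956 on the - strand for Agt and chr3:129332750-129332999 on the - strand for Enpep. Capitals mark matches, on either strand, to the TATA box letters TATAAA, the GC box letters GGGCGG and the CCAAT box letters CCAAT.
Ace: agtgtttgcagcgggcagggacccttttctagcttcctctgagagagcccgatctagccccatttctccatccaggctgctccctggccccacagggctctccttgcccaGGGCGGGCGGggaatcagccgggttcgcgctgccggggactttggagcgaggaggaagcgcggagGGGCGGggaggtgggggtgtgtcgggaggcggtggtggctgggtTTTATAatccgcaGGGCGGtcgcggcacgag
Agt: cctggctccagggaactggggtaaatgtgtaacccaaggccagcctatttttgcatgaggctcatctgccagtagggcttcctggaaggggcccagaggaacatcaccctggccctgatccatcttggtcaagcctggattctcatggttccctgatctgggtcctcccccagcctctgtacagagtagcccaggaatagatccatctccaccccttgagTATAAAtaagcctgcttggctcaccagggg
Enpep: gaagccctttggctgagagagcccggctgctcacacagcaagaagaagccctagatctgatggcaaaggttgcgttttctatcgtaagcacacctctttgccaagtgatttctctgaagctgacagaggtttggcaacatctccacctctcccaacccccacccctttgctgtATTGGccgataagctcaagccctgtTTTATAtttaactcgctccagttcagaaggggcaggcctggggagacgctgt

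The TATA box letters ended 25 bases before the start in Agt. In Ace they lay on the opposite strand, from 31 to 26 bases before the start, and in Enpep also on the opposite strand, from 52 to 47 bases before it. Of the other 4 matched members, Ren1 held them from 29 to 24 bases before its start and the others did not hold them. TATAAA stood in 12.4% of 32851 promoter windows of the same length. Ace held 4 matches to GGGCGG, of which 2 overlap each other (32.7% of all windows held at least 1), and Enpep held 1 match to CCAAT (33.8% of windows). The half-site letters TGTTCT of steroid receptors (16.1% of windows), AGGTCA of other nuclear receptors (14.0%), GTTAAT of HNF1 factors (6.43%) and the E-box letters CACGTG (6.02%) were not in these 3 windows.

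Library totals ran from 9106654 to 24321424 estimated counts (median 15638394.5). Levels are given as CPM, counts scaled to a common library size after TMM normalization over the 40 libraries, which corrects the totals for the make-up of each library. Mitochondrially encoded genes took 14.3% to 49.2% of the counts, and 4 libraries (Akita water replicates 2 and 5, Akita MitoGamide replicate 5 and WT MitoQ replicate 3) had a TMM factor under 0.9. In WT and Akita mice the mitochondrial share was 20.1% to 22.6% and 21.6% to 28.7% on ethanol, and 24.6% to 27.8% and 28.0% to 35.4% on MitoGamide. It was 14.3% to 37.3% and 24.2% to 43.1% on water, and 24.7% to 49.2% and 25.5% to 36.7% on MitoQ. Its part in the differences between genotypes was not tested. The summed level of 6 proximal tubule markers was between 7476 and 14983 CPM in the 40 libraries. That of 5 adrenal cortex markers was between 2.70 and 7.26 CPM, with Cyp11b2 at 0 counts throughout. Nothing in the labels beyond the 5 mice per group says how litters or extraction days were spread, so p-values measure the spread between these mice. In a bulk sample, fewer cells of a type and less RNA per cell cannot be told apart.

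Per kilobase of exon, Ace had the highest level of the 9 genes in WT mice, at 32.3 ± 9.72 CPM per kb (SD, n = 20), close to Hsd11b2 at 30.9 ± 6.46 CPM per kb. Anpep at 26.6 ± 5.65 and Enpep at 25.7 ± 6.11 CPM per kb followed, then Ren1 at 19.7 ± 10.87. Agt at 10.7 ± 2.87, Agtr1a at 9.19 ± 1.92 and Mme at 8.22 ± 2.47 CPM per kb lay close together, and Nr3c2 was lowest at 3.62 ± 0.46. Of the neighbours in this order, Mme and Nr3c2 differed by more than the SD of either, and the others differed by less than the larger SD of the pair. In Akita mice Enpep led, at 34.1 ± 8.96 CPM per kb, Agt was at 21.9 ± 5.66 and Ace at 11.9 ± 4.29.

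The comparison of Akita with WT mice asked how diabetes changed these transcripts, and it was made separately within each of the 4 treatments, which share no library. Ace fell and Agt and Enpep rose in Akita mice over all treatments, and the other 6 members were not called. On the ethanol vehicle, 4 of the 9 members had an adjusted p under 0.05 in edgeR's quasi-likelihood test (Benjamini-Hochberg over all genes), against 16.4% of all genes tested. On MitoGamide 3 members were called (14.3% of all genes), on water 1 (0.552%), and on MitoQ 0 (0.557%), where 3 members had an unadjusted p under 0.05 and DESeq2 called 2 members and 415 of 18143 genes. These shares rested in part on single libraries. With 1 library removed, the genes called ranged from 1248 (without WT replicate 2) to 2822 on MitoGamide (2386 with all), from 32 (without Akita replicate 4) to 94 on water (101 with all), and from 35 (without Akita replicate 5) to 270 (without WT replicate 3) on MitoQ (101 with all). With the 40 libraries in one fit that allowed for treatment, 3 members were called, against 22.8% of all genes, so calls were common in the whole table. In 6 of the 9 members the direction was the same in all 4 treatments, as it was in 40% of all genes. In CPM scaled over all 40 libraries, the genotypes did not overlap for 3 members on ethanol (13% of all genes) and 2 on water (2.53%). The same held for 2 members on MitoGamide (12.4%) and 0 on MitoQ (2.93%).

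**Figure D1:**
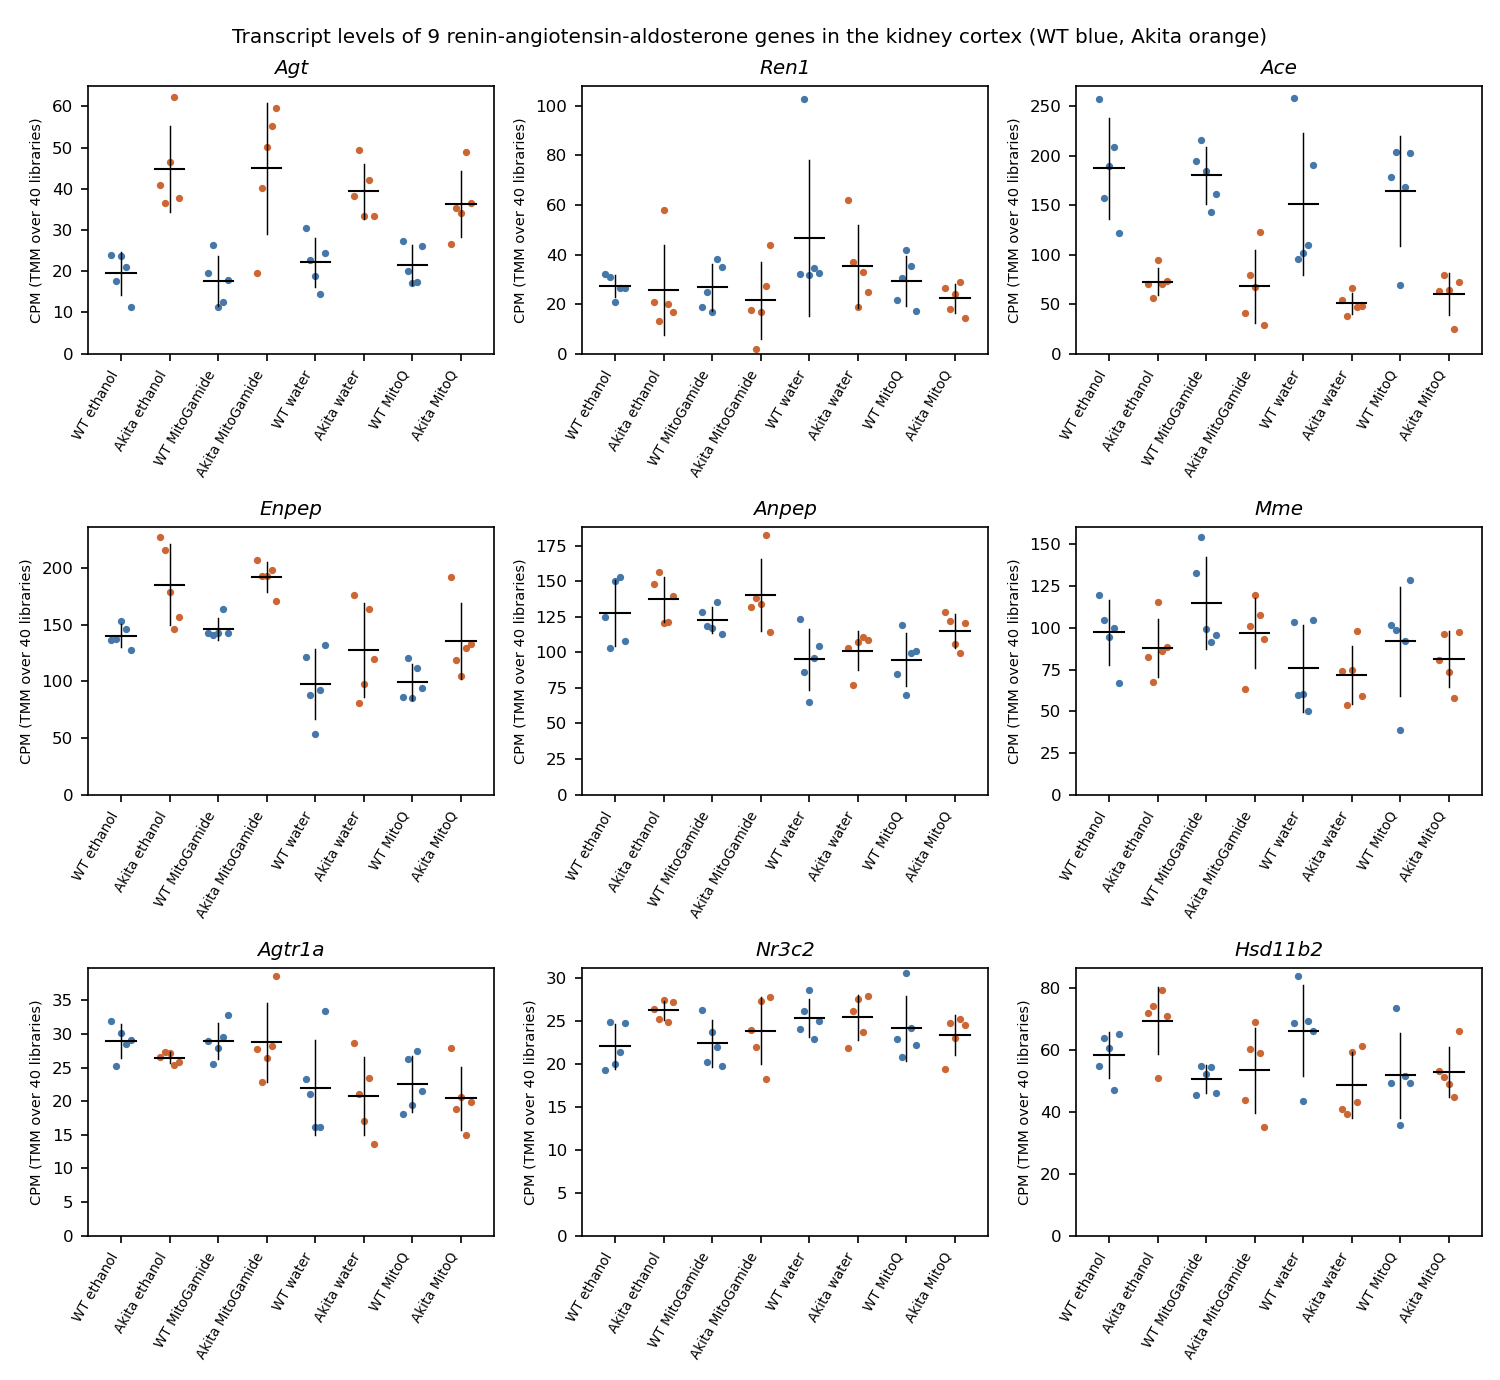
Levels of the 9 genes in each of the 40 mice, in CPM on a linear axis from 0, with WT mice in blue and Akita mice in orange. Points are mice, the horizontal line is the group mean and the vertical line its SD (n = 5). The mean of Ace is lower and the means of Agt and Enpep are higher in the Akita group of each of the 4 treatments, and 1 WT mouse on water stands apart for Ren1 at 103 CPM.

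Angiotensinogen, the substrate of the system, is made mostly by the liver and also by the proximal tubule. Agt (ENSMUSG00000031980.10, chromosome 8, 124556534 to 124569706 of GRCm38, minus strand, all exons counted) was at 23.9, 17.6, 23.6, 20.9 and 11.4 CPM in the 5 WT mice on ethanol and at 41.0, 36.6, 46.4, 62.4 and 37.7 CPM in the 5 Akita mice. Every Akita mouse was above every WT mouse. This was a 2.33-fold difference (log2 fold change 1.22 with a standard error, SE, of 0.19, adjusted p = 0.00073 from edgeR). On MitoGamide the WT mice were at 19.5, 26.4, 11.2, 12.6 and 17.8 CPM and the Akita mice at 19.5, 40.1, 50.2, 55.2 and 59.6 CPM. Here replicate 1 of the Akita mice lay among the WT mice, and the other 4 lay above them. The log2 fold change was 1.40 (SE 0.29, adjusted p = 0.0099 from edgeR).

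On water, Agt was at 30.4, 22.7, 18.8, 14.4 and 24.3 CPM in WT and at 38.2, 49.5, 33.5, 42.2 and 33.4 CPM in Akita mice. On MitoQ it was at 27.4, 20.1, 17.1, 17.3 and 26.1 CPM in WT and at 26.5, 35.4, 34.2, 48.9 and 36.6 CPM in Akita mice. The groups did not overlap on water, and on MitoQ 1 Akita mouse lay below the highest WT mouse. The log2 fold changes of 0.83 (SE 0.20) and 0.74 (SE 0.19) had adjusted p of 0.14 and 0.13 from edgeR, and of 0.016 in both from DESeq2. Over all treatments Agt averaged 41.4 ± 10.7 CPM in the Akita and 20.2 ± 5.43 CPM in the WT mice (SD, n = 20), 2.05-fold higher (log2 fold change 1.03, SE 0.12, adjusted p = 2.7e-08 from edgeR). The summed level of 5 liver markers was between 19.9 and 444 CPM, and the library at 444 CPM was WT water replicate 1, where Agt was at 30.4 CPM, the highest of the WT mice. In Akita MitoGamide replicate 1, the mouse whose Agt lay among the WT mice, the liver markers summed to 23.1 CPM, against 72.3 to 84.7 CPM in the other 4 Akita mice on MitoGamide. Without this library the log2 fold change of Agt on MitoGamide was 1.58 (adjusted p = 0.0021 from edgeR). The part of liver RNA in the level of Agt was not tested.

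Renin is the enzyme that starts the cascade, and C57BL/6J mice carry the single renin gene Ren1 (ENSMUSG00000070645.5, chromosome 1, 133350510 to 133360325, plus strand). Relative to its mean it was the most variable member among WT mice. In the ethanol arm it was at 32.2, 30.9, 21.0, 26.4 and 26.6 CPM in WT mice on vehicle and at 20.9, 12.99, 57.9, 19.9 and 16.7 CPM in Akita mice. Without Akita replicate 3, at 57.9 CPM, the other 4 Akita mice were below all WT mice, and the log2 fold change went from -0.09 (adjusted p = 0.88) to -0.61 (adjusted p = 0.015, both from edgeR). Leaving out any other of the 9 libraries gave no call. On MitoGamide, WT mice were at 18.8, 24.7, 16.9, 38.2 and 34.9 CPM and Akita mice at 17.7, 1.97, 16.6, 27.2 and 44.01 CPM. The library at 1.97 CPM, Akita replicate 2, held 36 counts of Ren1. It also held the lowest level of Akr1b7, a gene of renin cells, at 0.22 CPM. Akr1b7 was near the floor throughout, with at most 28 counts in the WT and 35 in the Akita libraries.

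On water, Ren1 was at 32.0, 103, 31.7, 34.6 and 32.6 CPM in WT mice and at 62.1, 37.0, 19.0, 33.1 and 24.8 CPM in Akita mice. In the WT mouse at 103 CPM, Akr1b7 was at 1.69 CPM, within the 1.19 to 2.44 CPM of its group. On MitoQ the levels were 21.6, 30.6, 42.0, 35.3 and 17.3 CPM in WT and 26.4, 17.9, 23.9, 28.9 and 14.5 CPM in Akita mice, which overlapped. The log2 fold changes of Ren1 in diabetes were -0.40 (SE 0.40) on water, -0.30 (0.52) on MitoGamide and -0.37 (0.24) on MitoQ. Over all treatments the log2 fold change was -0.30 (SE 0.21, adjusted p = 0.34 from edgeR), from means of 26.2 ± 14.7 CPM in the Akita and 32.6 ± 18.01 CPM in the WT mice (SD, n = 20). A change in renin transcripts was thus not detectable within the spread of these mice.

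Angiotensin-converting enzyme forms angiotensin II, and in the mouse kidney it is found on the proximal tubule and on endothelium. Ace (ENSMUSG00000020681.14, chromosome 11, 105967945 to 105989964, plus strand) had the largest difference of the members over all treatments. It was at 257, 158, 189.8, 209 and 122 CPM in WT mice on ethanol and at 69.9, 56.2, 94.2, 70.1 and 73.0 CPM in Akita mice. On MitoGamide it was at 195, 216, 185, 143 and 162 CPM in WT and at 41.2, 79.8, 66.9, 123 and 29.4 CPM in Akita mice. The groups did not overlap in either comparison, and the log2 fold changes were -1.35 (SE 0.18, adjusted p = 0.00026) and -1.36 (SE 0.31, adjusted p = 0.015 from edgeR). Both calls held in all 10 refits with 1 library removed.

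On water, Ace was at 259, 95.2, 102, 110.2 and 190.2 CPM in WT and at 53.7, 38.3, 66.5, 46.8 and 48.5 CPM in Akita mice, again without overlap. The log2 fold change was -1.58 (SE 0.29, adjusted p = 0.038 from edgeR), and the call held in 2 of the 10 refits with 1 library removed, those without WT replicate 2 and without WT replicate 3. With library totals in place of TMM the adjusted p was 0.060. Without Akita replicates 2 and 5, the water libraries with a TMM factor under 0.9, the log2 fold change was -1.44 and the adjusted p 0.39. On MitoQ, Ace was at 178, 203, 69.2, 169 and 203 CPM in WT and at 63.0, 79.4, 63.9, 24.6 and 72.0 CPM in Akita mice, and WT replicate 3 lay among the Akita mice. The log2 fold change was -1.44 (SE 0.33, adjusted p = 0.090 from edgeR), and without WT replicate 3 it was -1.64 with an adjusted p of 0.010.

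Ace was lower by at least 1 on the log2 scale in each of the 4 treatments. Of the 16406 genes tested in all 4, 0.798% changed in one direction by that much in each, and 1.66% by at least 0.7, the limit that Agt also passed. Both limits were chosen after the values were seen. Over all treatments it averaged 63.0 ± 22.7 CPM in the Akita and 171 ± 51.4 CPM in the WT mice (SD, n = 20), 0.367 of the WT level (log2 fold change -1.45, SE 0.15, adjusted p = 1.3e-09 from edgeR), and it was called in each of the 40 refits with 1 library removed.

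Markers of the S3 segment, the last part of the proximal tubule, moved in the same comparison. The summed level of the 4 S3 markers was 519 to 596 CPM in the means of the WT groups and 257 to 377 CPM in those of the Akita groups. Slc7a13 was at 388 ± 92.8 CPM in WT and 129 ± 61.4 CPM in Akita mice, Slc22a7 at 51.0 ± 22.0 and 10.4 ± 8.43 CPM and Cyp7b1 at 45.6 ± 27.4 and 19.7 ± 16.1 CPM, while Slc5a10 was at 72.0 ± 16.7 and 174 ± 45.9 CPM (SD, n = 20 each). The 6 general proximal tubule markers summed to 10249 to 13592 CPM in the means of the WT groups and 9246 to 11070 CPM in those of the Akita groups, and 3 endothelial markers to 144.5 to 208 and 137 to 234 CPM. Their part in the change of Ace was not tested.

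**Figure D2:**
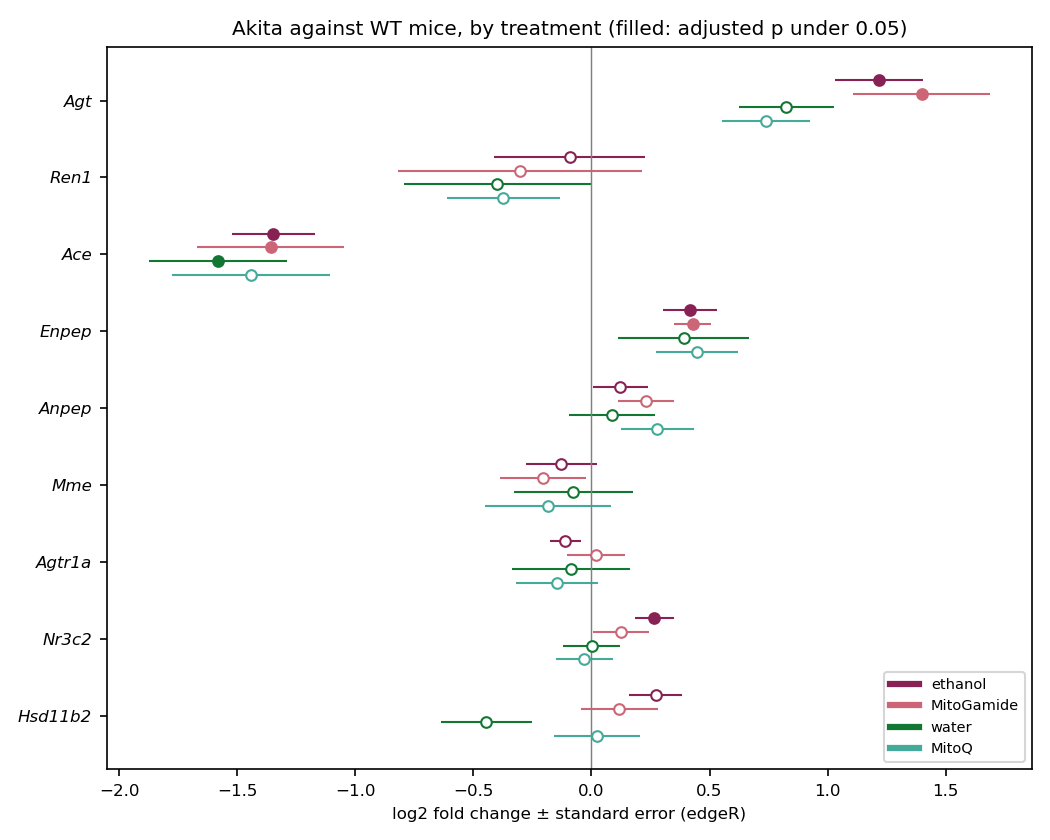
Log2 fold change of each gene in Akita against WT mice within each of the 4 treatments, with its standard error, from edgeR (5 against 5 mice each). Filled points have an adjusted p under 0.05. The 4 points of Ace lie between -1.58 and -1.35, those of Agt between 0.74 and 1.40 and those of Enpep between 0.39 and 0.45.

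Enpep encodes aminopeptidase A, a brush border enzyme that turns angiotensin II into angiotensin III. Enpep (ENSMUSG00000028024.14, chromosome 3, 129269175 to 129332720, minus strand) was at 137, 138, 154, 146 and 127 CPM in WT mice on ethanol and at 228, 216, 179, 147 and 157 CPM in Akita mice, where 1 Akita mouse lay below the highest WT mouse. On MitoGamide it was at 142, 141, 142, 164 and 143 CPM in WT and at 207, 193, 193, 199 and 171 CPM in Akita mice, without overlap. The log2 fold changes were 0.42 (SE 0.11, adjusted p = 0.023) and 0.43 (SE 0.08, adjusted p = 0.0057 from edgeR). The call on MitoGamide held in all 10 refits with 1 library removed. That on ethanol held in 6, and was lost without Akita replicate 1 or 2 or WT replicate 1 or 5, with adjusted p up to 0.062. In one fit of all 40 libraries both calls were lost, with log2 fold changes of 0.40 and 0.39 and adjusted p of 0.27 on ethanol and 0.17 on MitoGamide.

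On water, Enpep was at 121, 88.2, 54.0, 92.5 and 133 CPM in WT and at 177, 81.1, 98.0, 164 and 119.9 CPM in Akita mice. On MitoQ it was at 86.2, 121, 85.4, 112 and 94.2 CPM in WT and at 193, 119, 105, 129 and 133 CPM in Akita mice. The groups overlapped in both, and log2 fold changes of 0.39 (SE 0.28, adjusted p = 0.96) and 0.45 (SE 0.17, adjusted p = 0.42 from edgeR) were close to those in the ethanol arm. Over all treatments Enpep averaged 160.4 ± 42.2 CPM in the Akita and 121 ± 28.8 CPM in the WT mice (SD, n = 20), 1.33-fold higher (log2 fold change 0.41, SE 0.09, adjusted p = 6.3e-04 from edgeR), and was called in each of the 40 refits with 1 library removed.

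Anpep encodes aminopeptidase N, which acts on angiotensin III and on many other peptides of the brush border. Anpep (ENSMUSG00000039062.15, chromosome 7, 79821803 to 79861059, minus strand) ranged from 65.3 to 153 CPM in WT and from 76.8 to 182 CPM in Akita mice. Its log2 fold changes in diabetes were 0.12, 0.09, 0.23 and 0.28 on ethanol, water, MitoGamide and MitoQ, with standard errors of 0.12 to 0.18. Over all treatments it was 0.17 (SE 0.07, adjusted p = 0.091 from edgeR), and the adjusted p was 0.020 without the 4 libraries with a TMM factor under 0.9. It was also called in 5 of 40 refits with 1 library removed, those without Akita water replicate 2, WT ethanol replicate 3 or 4, WT water replicate 1 or WT MitoQ replicate 2, with an adjusted p down to 0.022. Mme (ENSMUSG00000027820.12, chromosome 3, 63241537 to 63386030, plus strand) encodes neprilysin, an endopeptidase that degrades angiotensins and natriuretic peptides. It ranged from 38.9 to 155 CPM in WT and from 53.6 to 119 CPM in Akita mice, with log2 fold changes of -0.13, -0.08, -0.21 and -0.19 in the same order and of -0.16 over all treatments (SE 0.11, adjusted p = 0.34 from edgeR). The mice of both genotypes overlapped for both peptidases in each treatment.

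Agtr1a (ENSMUSG00000049115.15, chromosome 13, 30336441 to 30382867, plus strand) encodes the main angiotensin II receptor of the mouse kidney. It was at 29.0 ± 2.50 CPM in WT and 26.5 ± 0.836 CPM in Akita mice on ethanol, and at 28.9 ± 2.65 and 28.8 ± 5.86 CPM on MitoGamide (SD, n = 5). On water it was at 22.0 ± 7.05 and 20.8 ± 5.79 CPM and on MitoQ at 22.6 ± 4.12 and 20.4 ± 4.71 CPM. The log2 fold changes in diabetes were between -0.15 and 0.02, and over all treatments -0.09 (SE 0.08, adjusted p = 0.48 from edgeR). The genotypes overlapped in every treatment.

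Nr3c2 (ENSMUSG00000031618.13, chromosome 8, 76899442 to 77245012, plus strand), the mineralocorticoid receptor that binds aldosterone, had the narrowest spread relative to its level, from 18.3 to 30.5 CPM in the 40 mice. On ethanol it was at 22.0 ± 2.63 CPM in WT and 26.2 ± 1.13 CPM in Akita mice (SD, n = 5), a log2 difference of 0.27 (SE 0.08, edgeR adjusted p = 0.041). The genotypes did not overlap, but only narrowly, with the highest WT mouse at 24.80 CPM and the lowest Akita mouse at 24.83 CPM. The call held in 3 of 10 refits, those without Akita replicate 4, WT replicate 2 or WT replicate 5, and elsewhere the adjusted p was up to 0.097. It was also lost with library totals (adjusted p = 0.154), without a filter (0.056) and in one fit of all 40 libraries (0.228). On water, MitoGamide and MitoQ the log2 fold changes were 0.0010, 0.13 and -0.03, and over all treatments 0.08 (SE 0.06, adjusted p = 0.34 from edgeR), without a call in these. Whether the ethanol and water effects of Nr3c2 differ was tested by an interaction term, which was 0.27 (SE 0.14, unadjusted p = 0.063, adjusted p = 1 from edgeR).

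Hsd11b2 (ENSMUSG00000031891.6, chromosome 8, 105518755 to 105523988, plus strand) is expressed in the aldosterone-sensitive nephron. On ethanol it was at 58.3 ± 7.46 CPM in WT and 69.6 ± 10.9 CPM in Akita mice, and on water at 66.4 ± 14.6 CPM in WT and 48.8 ± 10.7 CPM in Akita mice (SD, n = 5). The log2 fold changes were 0.27 (SE 0.11, adjusted p = 0.12) and -0.45 (SE 0.19, adjusted p = 0.60 from edgeR), and those on MitoGamide and MitoQ were 0.12 and 0.02. Without Akita replicate 3 the value on ethanol was 0.37, with an adjusted p of 0.016. The 2 vehicles thus gave opposite signs, with an interaction of 0.72 on the log2 scale (SE 0.24, unadjusted p = 0.0070, adjusted p = 1 from edgeR). It was the 1 member of 9 with an unadjusted p under 0.05 for this interaction, for which 0% of all genes were called by edgeR (767 had an unadjusted p under 0.05) and 2 by DESeq2. Over all treatments Hsd11b2 averaged 56.2 ± 12.99 CPM in the Akita and 56.8 ± 11.9 CPM in the WT mice.

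Other genes of the system were described by lists. These were taken with results of these data known and not picked by how the genes moved. Of 13 tested peptidases and receptors, 2 rose and 2 fell in Akita mice over all treatments (22.8% of all genes were called), with a median log2 fold change of 0.07 against -0.02 for all genes. Dpp4, a brush border peptidase, rose by 0.32 (adjusted p = 4.3e-04), and Cltrn (collectrin) and Ece1, the endothelin-converting enzyme, fell by 0.30 (adjusted p = 0.036) and 0.20 (adjusted p = 0.0042, edgeR). Prcp, which can also cleave angiotensin II, was lower by 0.35 on ethanol and by 0.40 on MitoGamide, each with an adjusted p of 0.013, whereas over all treatments its log2 fold change was -0.27 with an adjusted p of 0.13 (edgeR). Atp6ap2, the prorenin receptor, had a log2 fold change of 0.07 (adjusted p = 0.63). Agtr1b, the other receptor for angiotensin II of this type, had at most 5 counts and Agtr2 at most 4, so neither was tested.

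**Figure D3:**
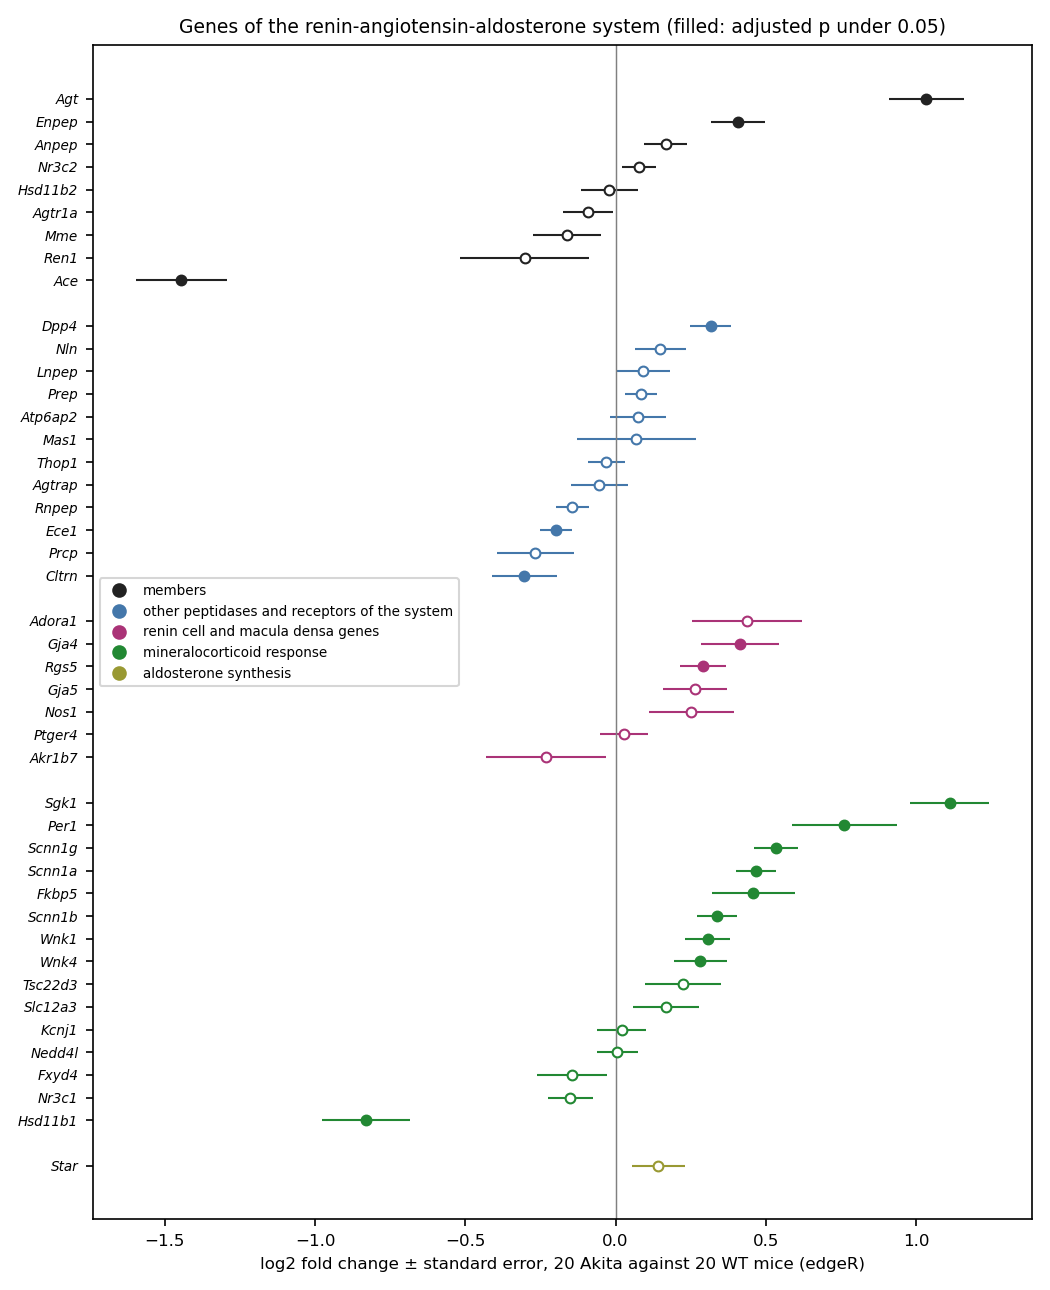
Log2 fold change in 20 Akita against 20 WT mice with its standard error, from the edgeR fit over all treatments, for the 9 members and the genes of 4 lists that are reported here. Filled points have an adjusted p under 0.05. Sgk1 at 1.11 and Agt at 1.03 are the highest values and Ace at -1.45 and Hsd11b1 at -0.83 the lowest.

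Of 7 tested genes of renin cells and the macula densa, 2 rose over all treatments and 0 fell (22.8% of all genes were called), with a median log2 fold change of 0.26 against -0.02 for all genes. The called genes were Rgs5, a pericyte gene, and Gja4, a vascular connexin. Akr1b7, of renin cells, had a log2 difference of -0.23 (edgeR adjusted p = 0.46). Of the 6 aldosterone synthesis genes, Star was tested over all treatments and was not called. Cyp11b2, the aldosterone synthase of the adrenal gland, had 0 counts in the 40 libraries, and Cyp11b1, Cyp21a1 and Hsd3b1 at most 4.

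Of the 16 genes in the list of the mineralocorticoid response, which holds induced genes, sodium transport genes and the glucocorticoid genes Nr3c1 and Hsd11b1, 9 rose and 1 fell over all treatments, against 22.8% of all genes called in either direction, and their median log2 fold change was 0.29. Sgk1, a kinase induced by aldosterone and glucocorticoids, averaged 125 ± 36.003 CPM in the Akita and 57.4 ± 17.6 CPM in the WT mice (SD, n = 20), a log2 difference of 1.11 (edgeR adjusted p = 1.9e-08). By treatment it was 0.42 on ethanol (edgeR adjusted p = 0.29), 1.51 on water (adjusted p = 0.015), 1.05 on MitoGamide (adjusted p = 0.0014) and 1.51 on MitoQ (adjusted p = 0.0018). Single mice stood apart on ethanol. WT replicate 3 was at 116 CPM, with the other WT mice between 43.4 and 65.8 CPM. Akita replicate 3 was at 147 CPM, with the other Akita mice between 65.6 and 87.6 CPM. On water, each of the 5 Akita mice was at 104 CPM or above and each of the 5 WT mice at 59.2 CPM or below. The subunits of the epithelial sodium channel rose over all treatments, Scnn1a by 0.47 (adjusted p = 7.2e-07), Scnn1g by 0.53 (adjusted p = 3.5e-07) and Scnn1b by 0.34 (adjusted p = 1.7e-04, edgeR). Within single treatments, all of them were called on MitoGamide, Scnn1a and Scnn1b on ethanol, and none on water or MitoQ. Hsd11b1, which restores active glucocorticoid and so acts opposite to Hsd11b2, averaged 28.8 ± 8.65 CPM in the Akita and 49.8 ± 20.4 CPM in the WT mice, with a log2 difference of -0.83 (edgeR adjusted p = 2.9e-05). By treatment it was -0.98 on ethanol (edgeR adjusted p = 0.0051), -1.04 on water (0.36), -0.24 on MitoGamide (0.56) and -1.03 on MitoQ (0.022). On MitoGamide, WT replicate 5 was at 93.4 CPM. The other WT mice there, between 33.0 and 43.0 CPM, lay within the 30.6 to 52.0 CPM of the Akita mice. On water, WT replicate 1 was at 86.0 CPM, with the other WT mice between 25.1 and 59.4 CPM. With MitoGamide against vehicle in Akita mice Hsd11b1 was higher by 0.57 (SE 0.12, edgeR adjusted p = 0.042). This call was lost without Akita ethanol replicate 1 or 2, where 0 genes were called. It was also lost with a block for replicate number, which gave 0 calls over all genes. Whether it held with any other single library left out was not examined. The interaction with genotype was 0.73 (SE 0.36, edgeR adjusted p = 0.61). Per1, Fkbp5, Wnk1 and Wnk4 were also called. Beside this list, the summed level of 3 principal cell markers was 76.8 to 117 CPM in the means of the WT groups and 128 to 168 CPM in those of the Akita groups, and its part in the change was not tested.

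The compounds were compared with their own vehicle to ask whether they moved these transcripts. MitoGamide and MitoQ are both targeted to mitochondria, the former to trap reactive dicarbonyls and the latter as an antioxidant, and since their vehicles differ and the dose of MitoQ is not given, their values stand side by side without a comparison. No member was called by edgeR or DESeq2 for either compound in either genotype, and the treated and vehicle mice overlapped for each of the 9. Of all genes, 7.5% did not overlap for MitoGamide in Akita mice, 2.28% for MitoGamide in WT mice, 0.308% for MitoQ in Akita mice and 0.962% for MitoQ in WT mice. For MitoGamide in Akita mice, 1.26% of all genes (214 of 17051) were called by edgeR and 1069 by DESeq2. The edgeR count rested on single libraries. It was 0 to 4 without any 1 of the 5 Akita vehicle mice, 13 to 212 without MitoGamide replicate 1, 2, 3 or 4 and 802 without replicate 5. The log2 fold changes of the members were between -0.36 (Hsd11b2) and 0.15 (Mme), and 0 members had an unadjusted p under 0.05. For MitoGamide in WT mice, where 0% of genes were called by edgeR (1841 with an unadjusted p under 0.05) and 74 genes by DESeq2, they were between -0.21 and 0.23. Hsd11b2, at the low end, was the 1 member with an unadjusted p under 0.05 (log2 fold change -0.21, SE 0.09, edgeR adjusted p 0.46).

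For MitoQ in Akita mice, 0% of all genes were called by edgeR (363 with an unadjusted p under 0.05) and 0 by DESeq2. Ren1, at 22.3 ± 5.98 CPM with MitoQ and 35.2 ± 16.6 CPM with water (SD, n = 5), was the 1 member below 0.05 before adjustment. Its log2 fold change was -0.66 (SE 0.29, edgeR adjusted p 0.9993). The values of both groups overlapped, and the highest mouse on water was at 62.1 CPM. In WT mice, with 0% of genes called by edgeR (575 with an unadjusted p under 0.05) and 2 by DESeq2, Ren1 had a log2 fold change of -0.68 (SE 0.37), with 1 mouse on water at 103 CPM. For the 3 members called in diabetes, the log2 fold changes with the compounds in Akita mice did not exceed their standard errors. With MitoGamide they were -0.07 (SE 0.31) for Ace, 0.01 (0.25) for Agt and 0.07 (0.12) for Enpep. With MitoQ they were 0.26 (0.26) for Ace, -0.11 (0.16) for Agt and 0.09 (0.24) for Enpep. These standard errors leave room for moderate effects in either direction. Diabetes on the vehicle and the compound in Akita mice share the Akita vehicle libraries.

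**Figure D4:**
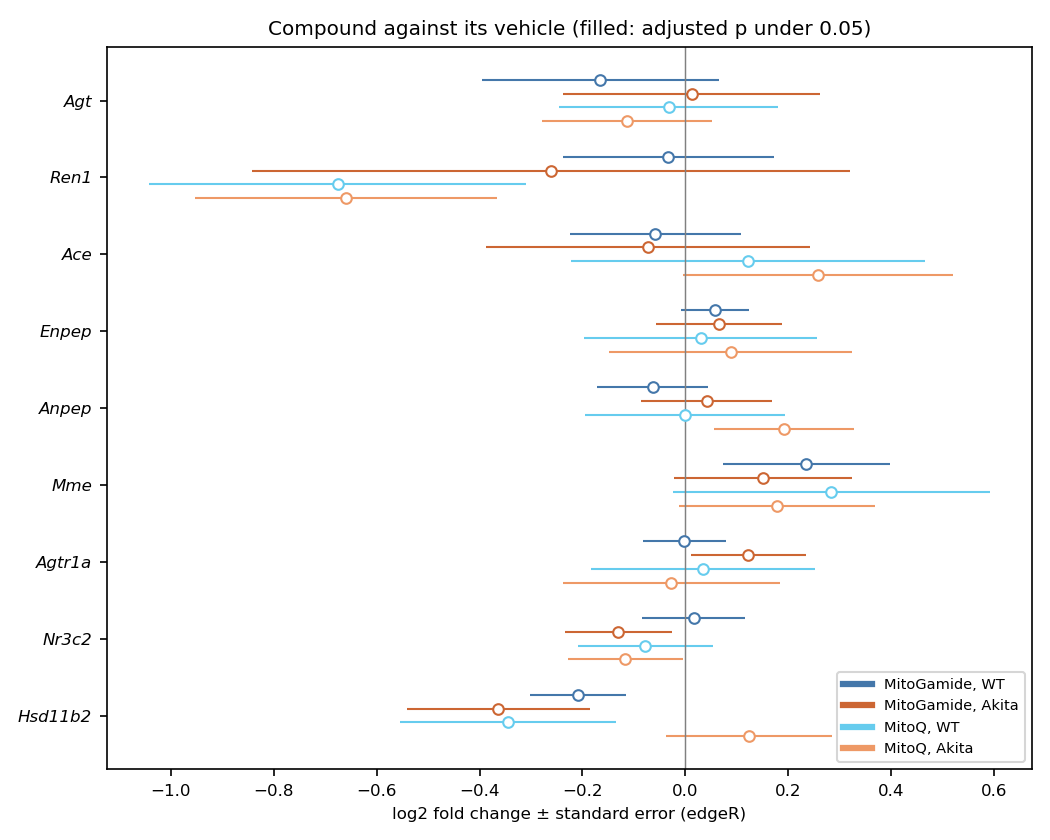
Log2 fold change of each gene with MitoGamide or MitoQ against the vehicle of its arm, with its standard error, in WT and in Akita mice, from edgeR (5 against 5 mice each). A filled point would mark an adjusted p under 0.05, and there is none. Ren1 lies at -0.68 and -0.66 with MitoQ, with standard errors of 0.37 and 0.29.

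The difference of the compound effect between Akita and WT mice was tested by interaction terms, and 0 members were called for MitoGamide or for MitoQ by edgeR. No member had an unadjusted p under 0.05. Of all genes, 0% were called in both (1435 and 207 with an unadjusted p under 0.05), and DESeq2 called 0 and 1. For diabetes by vehicle, the interaction was 0.23 (SE 0.37) for Ace, 0.39 (0.29) for Agt and 0.03 (0.32) for Enpep on the log2 scale.

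The vehicle libraries of both arms differed widely, with 45.8% of all genes called by edgeR between ethanol and water over both genotypes (8267 genes, and 3133 without the libraries with a TMM factor under 0.9). Whether ethanol or another difference between the arms is behind this cannot be told apart. Among the members 3 were called, all higher on ethanol, and these were Enpep by 0.55 (SE 0.16, adjusted p = 0.012), Anpep by 0.46 (SE 0.11, adjusted p = 0.0075) and Agtr1a by 0.39 (SE 0.13, adjusted p = 0.021) on the log2 scale. Ace was higher by 0.43 (adjusted p = 0.053), Mme by 0.35 (adjusted p = 0.066) and Ren1 lower, at -0.59 (adjusted p = 0.081 from edgeR), each with an unadjusted p under 0.05. The 3 calls held in each of the 20 refits with 1 library removed, and without the libraries with a TMM factor under 0.9 Agtr1a had an adjusted p of 0.0685. Ace was called with DESeq2 (adjusted p = 0.040) and without a filter (0.043). Ace, Mme and Ren1 also passed when 1 of some libraries was removed, Ace without WT ethanol replicate 5 or WT water replicate 1 or 5 (edgeR adjusted p down to 0.0072), Mme without those or Akita water replicate 4 (down to 0.024), and Ren1 without Akita ethanol replicate 3 (0.015). The water libraries also include WT replicate 2, where Ren1 was at 103 CPM, with the other WT mice on water between 31.7 and 34.6 CPM. Of the 6 proximal tubule markers 3 were called, all higher on ethanol. Their sum was 13592 ± 1295 CPM in WT and 11070 ± 1162 CPM in Akita mice on ethanol, and 10276 ± 1951 and 9246 ± 1744 CPM on water (SD, n = 5). Mitochondrially encoded genes took 20.1% to 28.7% of the counts on ethanol and 14.3% to 43.1% on water. Of the endothelial markers 3 of 3 were higher on ethanol, Kdr by 0.44 (edgeR adjusted p = 0.0075), Emcn by 0.29 (0.024) and Pecam1 by 0.26 (0.023). Of the genes of renin cells and the macula densa 5 of 7 were lower, Adora1 at -0.69 (adjusted p = 0.038), Akr1b7 at -0.68 (0.015), Nos1 at -0.57 (0.047), Gja5 at -0.56 (0.0082) and Rgs5 at -0.30 (0.023). Of the 4 markers of mesangium and smooth muscle 2 were lower, Myh11 at -1.03 (adjusted p = 0.0035) and Acta2 at -0.65 (0.0045), and Pdgfrb and Tagln were not called. Of the other marker lists, the podocyte gene Nphs1 (-0.63, adjusted p = 0.0047), the distal convoluted tubule gene Slc12a3 (-0.74, 0.0056) and the adrenal gene Star were lower, and Pvalb of the distal convoluted tubule (0.53, 0.025) and Slc7a13 of the proximal tubule S3 segment were higher. The part of these in the differences of the members was not tested.

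Between mice of one group, members varied together to different degrees. For the 36 pairs of members, the log2(CPM + 1) values were correlated after removal of the 8 group means, with 100000 permutations within groups and Benjamini-Hochberg adjustment over the 36 pairs. After adjustment, 9 pairs had a permutation p under 0.05, 6 of them positive. Ace and Mme were closest, with Pearson's r = 0.777 (permutation p = 1e-05, the smallest that the permutations can give, adjusted p = 3.6e-04) and Spearman's rho = 0.804 (permutation p = 1e-05). Without the 2 libraries farthest from the median of Ace, r was 0.831, and it was 0.657 within the ethanol arm and 0.850 within the water arm. Anpep and Enpep followed, with r = 0.686 (permutation p = 2e-05, adjusted p = 3.6e-04), rho = 0.702 (permutation p = 2e-05) and r = 0.614 without the 2 farthest libraries, and r of 0.582 and 0.756 within the arms. Ace and Anpep had r = 0.657 (permutation p = 6e-05, adjusted p = 7.2e-04), rho = 0.534 (permutation p = 0.0019), r = 0.634 without the 2 farthest libraries, and r of 0.504 and 0.757 within the arms. The other 3 of the 6 pairs among Ace, Mme, Anpep and Enpep did not pass, with r = 0.462 for Mme and Anpep (adjusted permutation p = 0.055), 0.307 for Mme and Enpep (0.21) and 0.278 for Ace and Enpep (0.22). Within the ethanol arm these were 0.028, -0.222 and 0.064, and within the water arm 0.698, 0.463 and 0.369.

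Agt and Mme had r = 0.548 (permutation p = 6.4e-04, adjusted p = 0.0046), rho = 0.509 (permutation p = 0.0023) and r = 0.562 without the 2 farthest libraries, and r of 0.771 and 0.407 within the ethanol and water arms. Agtr1a and Enpep had r = 0.570 (permutation p = 0.0076, adjusted p = 0.031) and rho = 0.498 (permutation p = 0.0071), with r = 0.622 without the 2 farthest libraries, but r was -0.064 within the ethanol arm and 0.691 within the water arm. The relation did therefore not hold within the ethanol arm. Hsd11b2 and Anpep had r = 0.501 (permutation p = 0.0077, adjusted p = 0.031) with r of 0.188 and 0.705 within the arms, and a rho of 0.343 (permutation p = 0.052, adjusted p = 0.15) that did not pass. Without the 2 farthest libraries its r was 0.505.

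Nr3c2 had negative correlations with Anpep, Ace and Enpep, and its pair with Mme did not pass (r = -0.340, permutation p = 0.072, adjusted p = 0.185). With Anpep its r was -0.583 (permutation p = 4.1e-04, adjusted p = 0.0037) and rho -0.504 (permutation p = 0.0026), with r = -0.545 without the 2 farthest libraries and r of -0.563 and -0.611 within the arms. With Ace it was -0.542 (permutation p = 0.0037, adjusted p = 0.019) and rho -0.424 (permutation p = 0.015, adjusted p = 0.068), with r = -0.498 without the 2 farthest libraries and r of -0.597 and -0.501 within the arms. With Enpep it was -0.459 (permutation p = 0.0010, adjusted p = 0.0061) and rho -0.470 (permutation p = 0.0029), with r = -0.502 without the 2 farthest libraries and r of -0.209 and -0.634 within the arms. Ren1 was in none of the 9 pairs. The points of each pair share the library and its make-up, and with library totals in place of TMM 18 pairs passed.

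**Figure D5:**
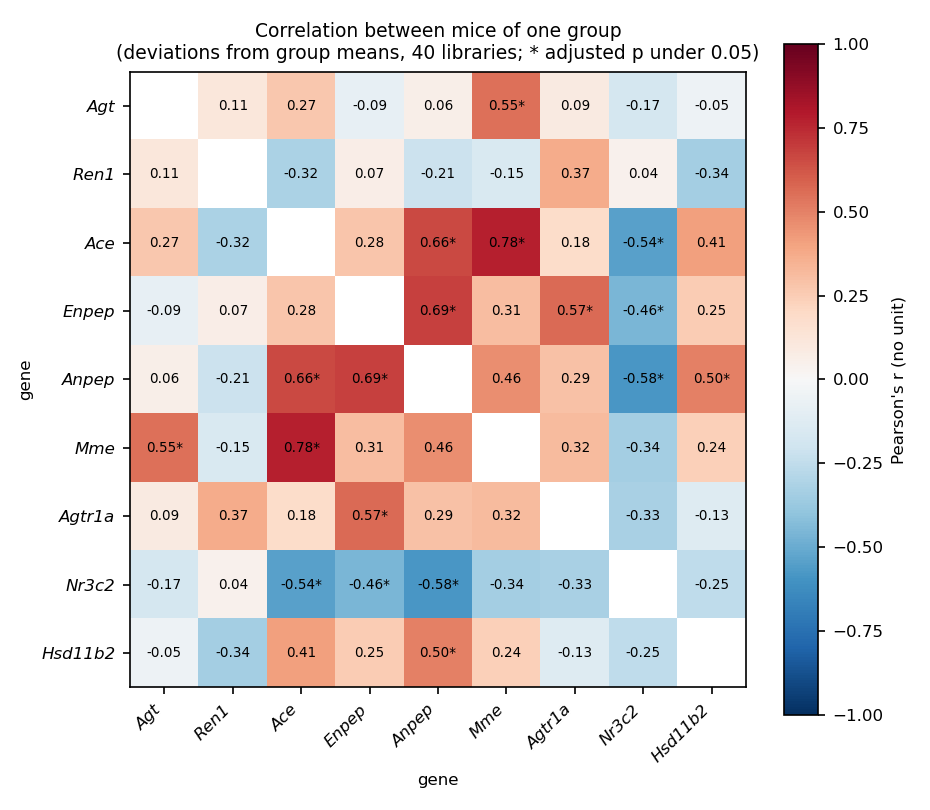
Pearson's r between each pair of the 9 genes over 40 libraries, after removal of the group means, from -1 (blue) to 1 (red). A star marks an adjusted permutation p under 0.05. The highest r is 0.78 between Ace and Mme, the pairs of Anpep with Ace and with Enpep also passed, and the row of Nr3c2 holds the 3 negative pairs that passed.

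The genes whose levels followed each member most closely were taken by Spearman's rho over the 40 libraries among 17768 other genes, as a description. These include the differences between groups, and the libraries share their make-up. Ace ran with Bdh1, an enzyme of ketone body use (rho = 0.955, and r = 0.938 within groups), with Cyp2a4, a cytochrome P450 with a close paralog that may share its reads (0.954 and 0.834), and with Ivd, an enzyme of leucine breakdown (0.942 and 0.896). Agt ran with Ugt1a10 (rho = 0.849, and r = 0.630 within groups) and Slc5a10 (0.848 and 0.436). Enpep ran with the complex I subunit Ndufa6 (rho = 0.955, and r = 0.907 within groups) and the carbonic anhydrase Car2 (0.948 and 0.909). For Anpep the closest was Guca2b, the precursor of uroguanylin (rho = 0.928), for Mme the metal transporter Slc39a8 (0.877) and for Agtr1a the protease Zmpste24 (0.877). The closest genes of Hsd11b2 (Dpp3, rho = 0.744), Nr3c2 (Usp49, 0.7099) and Ren1 (Krt80, 0.678) followed less closely. The 2 further genes of these 6 members were Slc9a2 and Polr2i for Anpep, Gpm6a and Ghr for Mme, Washc5 and Eps15 for Agtr1a, Scap and Plxnb2 for Hsd11b2, Plekhm3 and Eif2ak4 for Nr3c2 and Asap1 and Phgdh for Ren1.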

How the data were processed

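RNA of the kidney cortex of 40 mice was sequenced after depletion of ribosomal RNA, with directional libraries. The authors trimmed the reads, used kallisto 0.46.1 to quantify GENCODE mouse release 25, and collapsed transcripts to genes. What they deposited is a table of estimated counts in whole numbers, neither scaled nor filtered. Whether kallisto used the strand is not given in the sources used here. Ace and Nr3c2 each overlap an antisense gene, which had at most 5 and 3 counts. Positions are from GENCODE mouse release 21, which held 99.5% of the identifiers.

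The members and lists were chosen with earlier results of these data known. All 9 members are named. Genes of the lists are named with values if called in at least 2 of the 4 single-treatment comparisons (at most 8) or if they were Sgk1, Scnn1a, Agtr1b, Akr1b7 or Atp6ap2. A few genes that the rule names are not reported here. Others named as called were chosen after their values were seen.

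Each comparison was fitted on its own libraries in R 4.3.3 with edgeR 4.0.16 (TMM, quasi-likelihood test) on genes averaging 10 or more counts, and p-values were adjusted over all genes tested, with a call at an adjusted p under 0.05. Standard errors were taken from each log2 fold change and its F value. The study's methods name DESeq2, which was an alternative here (1.42.0). Others were RLE normalization, library totals, no filter, a stricter filter (10 counts in every library), the replicate block, one fit of all libraries and each library left out. Leaving out the libraries with a TMM factor under 0.9 was added after the data were examined. The fit was tested on simulated data.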

Additional observations from a re-analysis of the deposited data

Results flagged for a closer look

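In each of the 72 sets of 5 mice (9 members in 8 groups), the gap of the highest or lowest mouse to its nearest neighbour was set against the range of the group. In 5 sets it was over 0.71 of the range, Dixon's critical value for 5 values, where chance gives about 3.6. Ren1 was at 57.9079 CPM in Akita ethanol replicate 3, with the other 4 mice between 12.99 and 20.9 CPM, and at 102.992 CPM in WT water replicate 2, with the others between 31.7 and 34.6 CPM. Ace was at 69.2038 CPM in WT MitoQ replicate 3, with the others between 169 and 203 CPM, and this library also had the lowest TMM factor (0.505) and the highest share of mitochondrially encoded counts (49.2%). Anpep was at 76.7774 CPM in Akita water replicate 2, which had a TMM factor of 0.759 and a mitochondrial share of 43.1%, with the other mice between 103 and 111 CPM. Enpep was at 163.972 CPM in WT MitoGamide replicate 4, with the others between 141 and 143 CPM. Whether these values come from the mice or from the libraries was not tested.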

How the results depend on the processing

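Of 422 alternative values of single genes, 385 kept their direction and their side of the threshold, as did 814 of 880 with 1 library left out. The number of members called for diabetes on ethanol was 2 in one fit of all 40 libraries. For diabetes on water it was 2 with DESeq2 and 0 with library totals, with the replicate block and without the libraries with a TMM factor under 0.9. For diabetes on MitoQ it was 2 with DESeq2, 1 in one fit and 1 without those libraries. With 1 library left out it ranged from 2 to 5 on ethanol, 0 to 1 on water, 0 to 1 on MitoQ and 3 to 5 for ethanol against water. The pairs of members that passed were 18 with library totals.

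The labels do not say whether mice with the same replicate number were paired, for instance by litter or day. Over 40 same-numbered pairs, the correlation of deviations from the group means ranged from -0.534 to 0.738, with 11 over 0.1, and 11 libraries correlated best with their own number. With the replicate block, the adjusted p of Ace on water was 0.072, that of Nr3c2 on ethanol 0.056 and that of Ace for ethanol against water 0.026, and the block changed no other call of a member. Counts over all genes moved by more than 1.5 times as follows. MitoGamide in Akita mice gave 214 calls, and 1069 with DESeq2, 32 in one fit, 0 with the block and 802 without the libraries with a TMM factor under 0.9. Diabetes on water gave 101, and 354, 547, 32 and 12 in the same order, and on MitoQ 101, and 415, 308, 48 and 270, with 63 for library totals. Diabetes on ethanol gave 2910 and 844 in one fit, over all treatments 4045 and 2618 with library totals, and ethanol against water 8267 and 3133 without those libraries. Of the comparisons with 0 calls, MitoGamide in WT mice gave 74 with DESeq2, MitoQ in WT mice 18 in one fit, 2 with DESeq2 and 1 with the block, MitoQ in Akita mice 2 without those libraries, and DESeq2 2 for diabetes by vehicle and 1 for MitoQ by genotype. In one fit of 40 libraries Enpep had an adjusted p of 0.27 on ethanol and 0.17 on MitoGamide, and Ace 0.0072 on MitoQ.

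With library totals the median of all genes was -0.13 on water, 0.17 on MitoQ and 0.32 for MitoQ by genotype, where it was farthest from 0, against 0.0022, -0.0014 and 0.011 with TMM. Values without a call that changed sign on water were Agtr1a at 0.071 and Mme at 0.12 without the libraries with a TMM factor under 0.9, Anpep at -0.044 with library totals, and Nr3c2 at -0.0099 with DESeq2, -0.0035 with RLE, -0.14 with library totals, -0.0061 without a filter and -0.043 without those libraries. On MitoGamide Agtr1a was at -0.079 with library totals, -0.0072 with 10 counts in every library, -0.011 in one fit and -0.10 without those libraries. On MitoQ Agtr1a was at 0.0030 and Nr3c2 at 0.18 with library totals, Nr3c2 at 0.0032 without a filter and 0.048 without those libraries, where Hsd11b2 was at -0.087. Hsd11b2 over all treatments was at 0.039 without those libraries. The cause was not tested.

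With 1 library left out, sign changes occurred in these ranges, all on the log2 scale. Ren1 ranged from -0.61 to 0.078 on ethanol, -0.71 to 0.11 on water and -0.73 to 0.00055 on MitoGamide. On water, Agtr1a ranged from -0.24 to 0.15, Mme from -0.22 to 0.10, Nr3c2 from -0.039 to 0.051 and Anpep from -0.019 to 0.21. Agtr1a ranged from -0.10 to 0.091 on MitoGamide, Nr3c2 from -0.075 to 0.048 and Hsd11b2 from -0.087 to 0.19 on MitoQ, and Hsd11b2 from -0.043 to 0.037 over all treatments. With 5 mice per group, differences within these standard errors were not detectable.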
